A study of Mus musculus with 37 samples.

Results

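Transcripts of 35 mitotic genes were followed in fibroblasts that had received a mixed pool of factors, and were compared between cells in which a given factor was detected and cells in which it was not. The genes form a named list of regulators and structural proteins of mitosis, chosen by function. Earlier results of these data were known when the list was chosen. The rows of the genes were found by Ensembl identifier. All 35 of the 35 listed genes had a row among the 27998 Ensembl rows of the count tables. All 35 passed the minimum of 20 counts in each of the 10 comparisons.

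Cells entering mitosis switch on a shared programme late in the cell cycle. The kinase Cdk1 with cyclins A and B drives entry, a spindle and kinetochores attach and move the chromosomes, the spindle checkpoint delays the anaphase-promoting complex until attachment is complete, and a midzone then guides cytokinesis. Many of these genes share promoter elements (CCAAT boxes and the cell cycle genes homology region, CHR) at which the DREAM and MMB complexes are known to repress them in resting cells and activate them in dividing ones. Cdkn1a encodes p21, an inhibitor of cyclin-dependent kinases that is induced by p53 and favours the repressing form. Embryonic fibroblasts divide in culture, while differentiated muscle cells have left the cell cycle.

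Mouse embryonic fibroblasts (MEFs) of the ICR background were infected with a retroviral pool of 48 factors and taken 7 days later. Drop-seq, in which droplets pair single cells with barcoded beads that capture polyadenylated RNA, was used to read them. The labels give technical replicates 1 to 37 of 1 biological replicate, and the samples form a single group that received the pool. All comparisons were therefore between cells of 1 culture, and each p-value measures only the spread between technical libraries. Which factors a cell carried is not labelled, so cells with 1 or more counts of a factor's gene were taken as having it. Delivered and endogenous transcripts of the gene cannot be told apart, and a cell without a count may still carry the factor. A single count can also come from free RNA of other cells. Since every cell had met the pool, no cell type here should lack a factor and give that background, and it was not measured.

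Technical replicates 4 and 6 shared 59 cell barcodes, whereas no other pair shared more than 4, and they were joined into 1 library. After removal of 89 shared and 76 near-identical barcodes, 8565 of 8730 barcodes in 36 libraries remained. Libraries held between 637680 and 7921171 counts and between 70 and 548 cells, and the median cell held 8553 counts. The library names fall into a JD series (15 libraries), a PZ47-PZ48 series (15 libraries) and a PZ58 series (6 libraries). In 10 of the 36 libraries the ribosomal protein gene Rps27a stood above 100 CPM (counts scaled to a common library total), which set these apart from the other 26 as a class of their own. The class holds all 6 PZ58 libraries and JD libraries 1, 2, 3 and 16. Leaving it out therefore also leaves out the PZ58 series, and PZ58 cannot be told apart from this class. The cells expressed fibroblast genes: in cells without detected Gata6, the 9 fibroblast markers summed to 11524 ± 1465 CPM (SD, n = 36 libraries), against 18.0 ± 5.44 CPM for the endothelial markers tested alongside.

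The promoters of the genes show the shared elements. Of the 35 genes, 30 had an entry in the RefSeq promoter table (GRCm38.p6; 250 bases before to 50 bases after the gene start). The CHR letters TTTGAA, searched on both strands, occurred in 24 of these 30 genes (80%), against 20.23% of all 27025 genes with a promoter of that length. A gene with several promoter entries was counted if any of them held the letters. CCAAT, on both strands, occurred in 25 of 30 (83.33%), against 41.06% of all. The CHR-like letters TTTAAA, which are their own reverse complement and overlap neither of the others, occurred in 8 of 30 (26.67%), against 14.88% of all. Within the 150 bases from 100 before to 50 after the start, TTTGAA was found in 24 of the 30 and in 9.228% of all genes. Nuf2 and Nusap1 held none of the 3 strings, which says only that these letters are not in the window. The 100 bases before the start are printed below 5′ to 3′ along each gene, for 7 genes that lead a comparison or belong to the core mitotic machinery and for Ube2c, which went apart from the rest. Capitals mark TTTGAA or TTTAAA and CCAAT, or their reverse complements TTCAAA and ATTGG.
Cdk1 (chr10:69352913-69353012, minus strand): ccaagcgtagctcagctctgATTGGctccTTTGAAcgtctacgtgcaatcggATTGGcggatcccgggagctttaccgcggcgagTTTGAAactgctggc
Cdc20 (chr4:118437344-118437443, minus strand): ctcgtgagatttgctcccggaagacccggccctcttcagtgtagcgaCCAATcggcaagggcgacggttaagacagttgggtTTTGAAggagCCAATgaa
Ube2c (chr2:164769829-164769928, plus strand): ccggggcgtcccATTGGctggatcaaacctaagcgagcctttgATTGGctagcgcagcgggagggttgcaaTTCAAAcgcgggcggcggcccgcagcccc
Top2a (chr11:99024190-99024289, minus strand): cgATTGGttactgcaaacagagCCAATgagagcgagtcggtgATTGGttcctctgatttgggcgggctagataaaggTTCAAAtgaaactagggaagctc
Kif11 (chr19:37376282-37376381, plus strand): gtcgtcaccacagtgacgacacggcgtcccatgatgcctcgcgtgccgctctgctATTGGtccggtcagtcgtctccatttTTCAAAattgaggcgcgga
Plk1 (chr7:122159335-122159434, plus strand): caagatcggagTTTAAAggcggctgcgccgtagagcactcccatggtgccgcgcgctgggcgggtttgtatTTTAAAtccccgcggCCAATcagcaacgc
Ccnb1 (chr13:100786487-100786586, minus strand): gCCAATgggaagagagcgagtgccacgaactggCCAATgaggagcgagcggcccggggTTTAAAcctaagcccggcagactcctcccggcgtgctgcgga
Birc5 (chr11:117849137-117849236, plus strand): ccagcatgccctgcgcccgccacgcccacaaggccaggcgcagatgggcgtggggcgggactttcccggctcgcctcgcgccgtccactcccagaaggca
Cdk1 carries TTTGAA at 2 places in this stretch, Plk1 carries TTTAAA at 2 places, and the stretch before Birc5 has none of the strings. The data hold no binding measurement, so a match is a description of the letters only.

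Summed over the 35 genes, the mitotic level was 2762 ± 417 CPM (SD, n = 36 libraries), with a lowest library of 2026 CPM, a median of 2675 CPM and a highest of 3771 CPM. It was alike in the 3 series of libraries: 2757 ± 352 CPM in JD (n = 15), 2714 ± 438 CPM in PZ47-PZ48 (n = 15) and 2892 ± 557 CPM in PZ58 (n = 6). The 10 libraries with high Rps27a stood at 2752 ± 497 CPM and the other 26 at 2765 ± 394 CPM. The spread within each series was larger than the distance between them.

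Within a library the transcripts were concentrated in a minority of cells. Each cell was thinned to 3000 counts, which left out 386 shallower cells and kept 8179. Of these, 1975 cells (24.15%) held none of the 35 transcripts, and 2207 cells (26.98%) held at least 10, a threshold set after the distribution had been seen and called mitosis-high here. Mitosis-high cells held 85.86% of all counts of the 35 genes and a median of 26 of the 35 genes per cell, against a median of 3 genes in the other cells. Across libraries 26.8 ± 3.42% of cells were mitosis-high (lowest 20.5%, highest 33%). The numbers of cells fell without a gap across the threshold: 326 cells (3.986%) lay between 8 and 11 counts, and thresholds of 6 and 20 gave 32.02% and 18.02% of cells. The median total was 9160 counts in mitosis-high cells and 8939 in the others, so depth was similar on both sides.

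**Figure D1:**
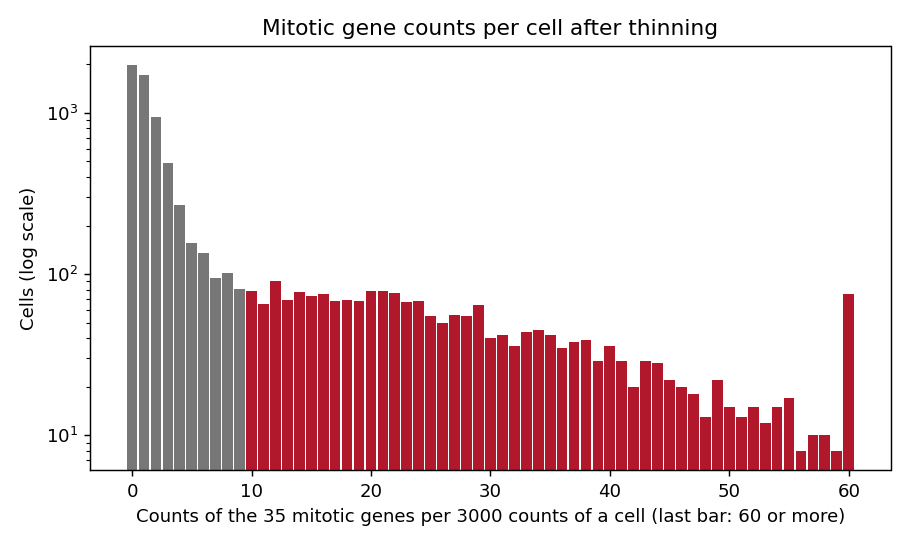
Number of cells (log scale) by counts of the 35 mitotic genes after thinning each cell to 3000 counts; the last bar holds all cells with 60 or more, and red bars are the 2207 cells with at least 10. Numbers fall steeply from 0 and then level off into a long shoulder.

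Every role in mitosis was represented in the same cells. Of the counts of the motor Kif11, the microtubule-bundling Nusap1 and the kinase Plk1, 91.64%, 91.82% and 91.18% lay in mitosis-high cells. Shares were lower for Ccna2, the cyclin that is already present in S phase (72.56%), for Cdk1 (79.53%) and for the midzone kinesin Kif20a (63.07%). These shares follow in part from the threshold, since each gene is in the sum that sets it. Kif20a shares 1271 exonic bases with Cdc23 on the opposite strand. Strand use in counting is not given in the sources used here, and 8 of the 35 genes overlap another counted gene in this way (Ccna2, Cdc20, Ube2c, Nusap1, Ckap2l, Kif20a, Kif4 and Prc1), so their values are uncertain. Among 7508 genes with a mean of at least 20 CPM, the non-members whose level followed the summed level most closely over the 36 libraries were Tacc3 (Pearson r = 0.88), Dlgap5 (0.87), Cep55 (0.83), Spc25 (0.80) and Cdca2 (0.76). The first 4 act at the spindle, the midbody or the kinetochore. These r are descriptions over technical libraries that share a culture.

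For the comparisons, cells showing a factor were paired, inside their own library, to cells lacking any count of it. Totals in a pair differed by at most 0.2 on the log2 scale, and both sets were summed per library. Cells that found no partner were left out. Pairs took in 34.56% of cells with Hdac2, 52.25% with Hdac1, 59% with Smarcd3 and 67.41% with Tcf3. They took in 72.73% of the top Cdkn1a group, and 91.89% to 97.44% for the other factors compared gene by gene. Paired cells with Hdac2 had a median total of 6064 counts, against 10774 for all cells with Hdac2. The Hdac2 results therefore describe its shallower cells. Summed counts went into edgeR's quasi-likelihood model, blocked by library, and a gene was called at an adjusted p under 0.05 (Benjamini-Hochberg, over all genes tested). A fold change of a summed set cannot tell fewer cells with mitotic transcripts from less RNA per cell, and the share of mitosis-high cells is therefore given as well. In an alternative, 937 cells with at least 3 detected genes of the skeletal muscle, mesothelial, glial or macrophage list were left out (called other-type cells below). Cells with fewer such genes stayed in, among them 985 cells 1 gene short for skeletal muscle and 196 for macrophages. A cell can carry several factors, so the comparisons share cells and are not independent of each other. Shares over all genes are given for the main comparisons only, so counts called in alternatives cannot be set against them.

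**Figure D2:**
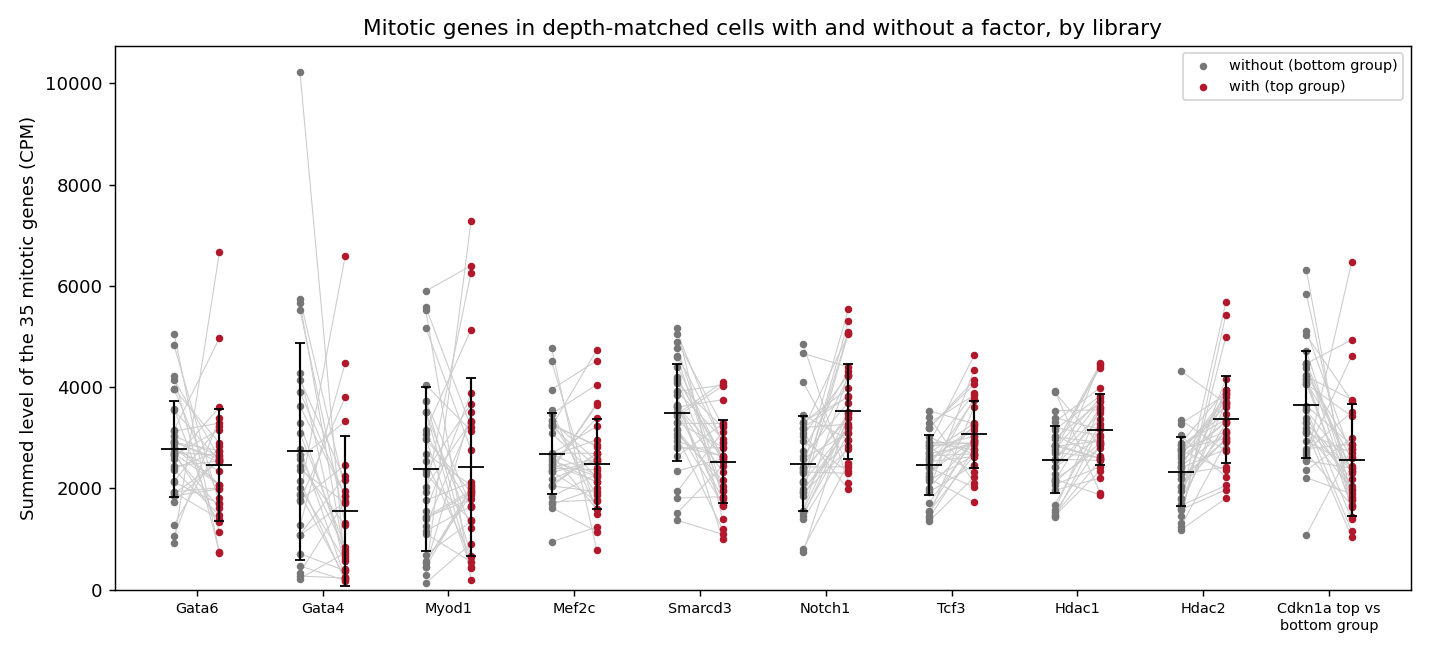
Summed level of the 35 genes (CPM) in depth-matched cells without (grey) and with (red) each factor, or in the bottom and top Cdkn1a group; points are libraries, lines join the same library, and bars are the mean and SD. With Hdac2 the level was higher in 32 of 36 libraries, and with Smarcd3 it was lower in 26 of 36.

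**Figure D3:**
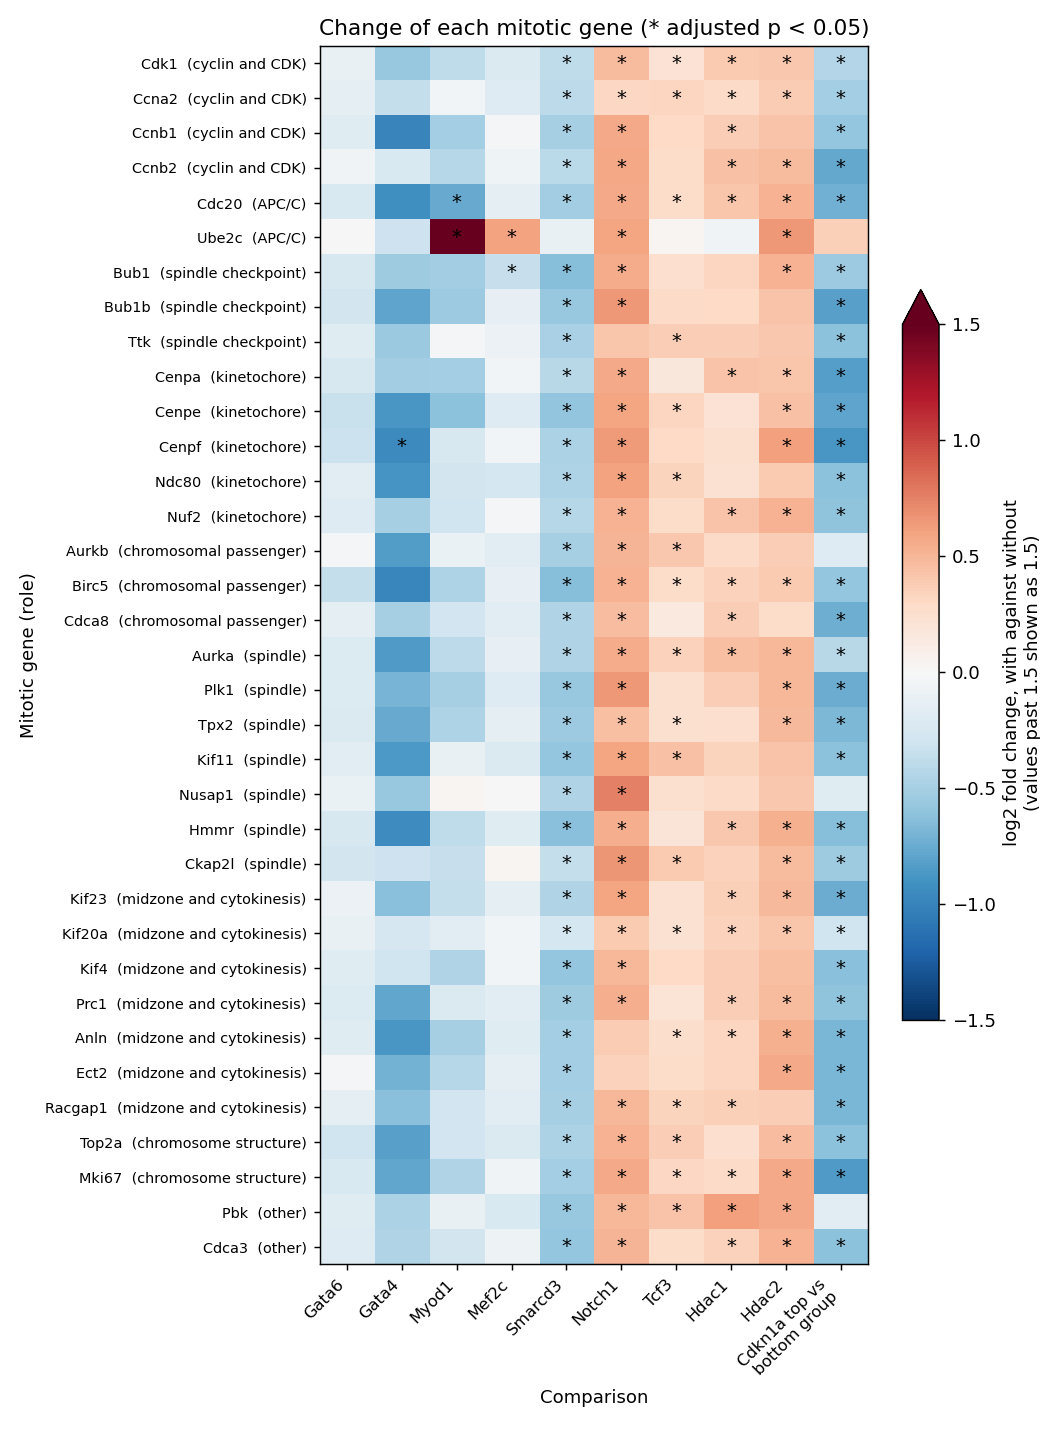
Log2 fold change of each mitotic gene (rows, with role) in each comparison (columns), stars marking an adjusted p under 0.05; the scale stops at 1.5. Notch1, Tcf3, Hdac1 and Hdac2 columns are red and Smarcd3 and Cdkn1a columns blue, except Ube2c at -0.05 for Hdac1 and 0.36 for Cdkn1a, and Ube2c stands at 2.19 for Myod1.

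Cells with Notch1, a receptor whose released intracellular part acts on transcription, held more of nearly the whole programme. In 1680 matched pairs (median totals 12854 and 12931 counts), 32 of 35 genes were higher and 0 lower, where 0.913% of all 15887 genes tested were higher and 0.504% lower. The 35 genes had a median log2 fold change of 0.55, against 0.002715 over all genes tested. The summed level was 2487 ± 936 CPM without Notch1 (lowest 737, median 2364, highest 4860) and 3523 ± 937 CPM with it (lowest 1980, median 3397, highest 5542), higher in 29 of 36 libraries.

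The gene with the smallest adjusted p was Kif23, a kinesin of the centralspindlin complex that builds the midzone. Its level was lowest 16.5, median 53.9 and highest 153.7 CPM without Notch1, and lowest 47.3, median 77.8 and highest 149.3 CPM with it, 31 of 36 libraries being higher (log2 fold change 0.59, SE 0.09, adjusted p = 0.000159). The groups overlapped widely although most libraries moved the same way. Nusap1 had the highest fold change (0.76, SE 0.13, adjusted p = 0.000791), from a median of 36.5 to one of 68.7 CPM. The spindle protein Ckap2l (0.66), the kinetochore motor Cenpe (0.59), the kinetochore protein Ndc80 (0.60), cyclin Ccnb2 (0.58), the topoisomerase Top2a (0.52) and the proliferation antigen Mki67 (0.57) also rose, with adjusted p between 0.000465 and 0.000955. All 4 cyclin and Cdk genes, all 5 kinetochore genes, all 7 spindle genes and all 3 chromosomal passenger genes were called. The 3 genes not called were the cytokinesis factors Anln (0.39, adjusted p = 0.10) and Ect2 (0.34, adjusted p = 0.17) and the checkpoint kinase Ttk (0.41, adjusted p = 0.11). The other genes of the programme followed: 30 of 53 other mitosis genes were higher, among them Ckap2 (0.60) and Tacc3 (0.53), with a list median of 0.48, and 4 of 30 replication genes were higher (Tyms 0.34). Glial markers moved with Notch1, 2 of 6 tested being higher, and their sum ranged from 0 to 95.4 CPM without and from 4.70 to 508.5 CPM with Notch1. Their part in the result was not tested. Without other-type cells 30 of 35 mitotic genes were higher. Fewer were called without the JD series (21) and without the PZ47-PZ48 series (7).

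Cells with the histone deacetylases Hdac2 and Hdac1 also held more mitotic transcripts. Both enzymes are subunits of corepressor complexes and are made by dividing fibroblasts themselves, and Hdac2 was detected in 72.12% of all cells and Hdac1 in 54.55%. In 2135 pairs for Hdac2 (median totals 6064 and 6029), 25 of 35 genes were higher and 0 lower, where 0.625% of 14715 genes tested were higher and 0.129% lower. Their median log2 fold change was 0.47, against -0.005481 over all genes tested. Summed over the 35 genes it was 2330 ± 682 CPM without Hdac2 (1182 to 4326) and 3366 ± 863 CPM with it (1804 to 5671), higher in 32 of 36 libraries.

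Mki67 led for Hdac2. It stood at lowest 34.5, median 113.0 and highest 184.2 CPM without Hdac2, and at lowest 104.1, median 163.8 and highest 286.6 CPM with it, higher in 30 of 36 libraries (log2 fold change 0.57, SE 0.09, adjusted p = 0.000164). Libraries with Hdac2 reached well below the top of those without. Ube2c, the ubiquitin-conjugating enzyme of the anaphase-promoting complex, had the highest fold change (0.65, SE 0.12, adjusted p = 0.001215). Its value is uncertain, since Ube2c shares 592 exonic bases with the muscle gene Tnnc2 on the opposite strand. The spindle factor Tpx2 (0.49), the cytokinesis scaffold Anln (0.54), Hmmr (0.53), Cenpf (0.61), Top2a (0.46) and the checkpoint target Cdc20 (0.52) rose as well, with adjusted p between 0.000186 and 0.002205. Ttk had the largest adjusted p (0.40, adjusted p = 0.27). Of the other mitosis genes 15 of 53 were higher, led by the condensin gene Smc4 (0.35) and Dlgap5 (0.64), and of the replication genes 4 of 30, among them Clspn (0.54). Of the G1 regulators and of the p53 targets, 0 of 18 each were called by edgeR, with 6 and 0 at an unadjusted p under 0.05. Of 15 skeletal muscle markers 4 were higher with Hdac2, their sum ranging from 98.8 to 3288 CPM without and from 63.3 to 3830 CPM with it. Fewer mitotic genes were called without the JD series (3), without the PZ58 series (15) and without the 10 libraries with high Rps27a (9).

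For Hdac1, 2441 pairs (median totals 7753 and 7706) gave 19 of 35 genes higher and 0 lower, where 0.957% of 15469 genes tested were higher and 1.06% lower. Over the 35 genes the median log2 fold change was 0.35, against -0.005711 over all genes. The summed level rose from 2572 ± 668 CPM (1431 to 3927) to 3157 ± 698 CPM (1874 to 4469), higher in 25 of 36 libraries. All 4 cyclin and Cdk genes were called. Pbk, a mitotic kinase, moved most: it was lowest 0, median 32.0 and highest 51.1 CPM without Hdac1, and lowest 19.8, median 43.0 and highest 79.0 CPM with it (log2 fold change 0.61, SE 0.11, adjusted p = 0.000294, higher in 29 of 36 libraries). Ccnb2 (0.44), Cdk1 (0.39), the centromeric histone Cenpa (0.42), Cdc20 (0.42), Kif20a (0.34), the spindle-pole kinase Aurka (0.45) and Hmmr (0.41) followed, with adjusted p between 0.000585 and 0.005378. Top2a missed the threshold (0.26, adjusted p = 0.11), and Ube2c was at -0.05 (adjusted p = 0.95). Of the other mitosis genes 15 of 53 and of the replication genes 9 of 30 were higher, the ribonucleotide reductase subunit Rrm2 at 0.50. Muscle markers were lower with Hdac1, 14 of 15 skeletal muscle genes and 4 of 10 cardiomyocyte genes, and the skeletal muscle sum ranged from 63.3 to 4406 CPM without and from 74.5 to 3337 CPM with Hdac1. Without other-type cells, 11 of 35 mitotic genes were higher. Counts were also smaller without the JD (4), PZ47-PZ48 (8) or PZ58 (11) series, without the 10 libraries with high Rps27a (7) and without the library block (7). Without cells with Hdac2, which left 706 pairs, 1 of 35 genes (Cenpa) passed, at a median log2 fold change of 0.33 over the 35 genes. In the converse comparison, Hdac2 among cells without Hdac1 (1242 pairs), 19 genes were higher at a median of 0.57.

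Tcf3, an E protein that partners with tissue-specific basic helix-loop-helix factors, went with a smaller rise. In 2712 pairs (median totals 8758 and 8753), 18 of 35 genes were higher and 0 lower, where 1.32% of 15910 genes tested were higher and 2.28% lower. A median log2 fold change of 0.28 stood against 0.002194 over all genes. The summed level was 2464 ± 584 CPM without Tcf3 (1350 to 3537) and 3068 ± 664 CPM with it (1730 to 4630), higher in 28 of 36 libraries. Top2a rose from a lowest of 65.2, a median of 250.4 and a highest of 347.9 CPM to 170.5, 310.6 and 593.1 CPM (log2 fold change 0.37, SE 0.07, adjusted p = 0.000187, higher in 30 of 36 libraries). Most libraries were higher with Tcf3, and the groups overlapped. Ccna2 (0.32), Mki67 (0.31), Ckap2l (0.39), Kif11 (0.44), Pbk (0.43), the centralspindlin subunit Racgap1 (0.33) and survivin, Birc5 (0.28), followed with adjusted p between 0.000746 and 0.007182. Ube2c had the largest adjusted p (0.03, adjusted p = 0.97). Of the replication genes 21 of 30 were higher (Mcm7 0.39, Tyms 0.31, Chaf1a 0.37), and of the other mitosis genes 16 of 53 (Sgo1 0.60, Hjurp 0.45). Smooth muscle genes were lower with Tcf3 (5 of 6; Acta2 -0.39, Actg2 -0.77), as were 4 of 8 mesothelial genes, whose sum ranged from 39.8 to 632.2 CPM without and from 1.89 to 291.4 CPM with Tcf3. Without other-type cells, 32 of 35 mitotic genes were higher. Fewer were called without the JD (11), PZ47-PZ48 (4) or PZ58 (11) series, without the 10 libraries with high Rps27a (5) and without the library block (5).

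Smarcd3 (Baf60c), a subunit of SWI/SNF chromatin remodellers used in heart and muscle, marked cells with less of the programme. In 2661 pairs (median totals 7991 and 7972), 34 of 35 genes were lower and 0 higher, where 5.86% of 15648 genes tested were lower and 4.22% higher. Their median log2 fold change was -0.50, against 0.006735 over all genes. Summed over the 35 genes it was 3495 ± 957 CPM without Smarcd3 (1372 to 5164) and 2531 ± 813 CPM with it (1000 to 4095), lower in 26 of 36 libraries.

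Hmmr, a microtubule-binding protein of the spindle, stood at lowest 46.2, median 145.2 and highest 268.0 CPM without Smarcd3 and at lowest 28.7, median 101.5 and highest 164.5 CPM with it. It was lower in 32 of 36 libraries (log2 fold change -0.62, SE 0.08, adjusted p = 3.14e-07). Birc5 was lower in 31 of 36 (-0.63, adjusted p = 6.47e-07), from a median of 180.0 to one of 106.4 CPM. Libraries with and without Smarcd3 overlapped for both genes, with most libraries moving down. Tpx2 (-0.54), the checkpoint kinase Bub1 (-0.64), Pbk (-0.57), Cenpe (-0.59), Anln (-0.51) and Racgap1 (-0.50) fell with adjusted p between 2.21e-06 and 3.84e-05. Ube2c was the single gene not called (-0.11, adjusted p = 0.65). Of the other mitosis genes 41 of 53 were lower (Cenpn -0.76, Sgo1 -0.76), and of the replication genes 23 of 30 (Prim1 -0.57, Rrm2 -0.54). G1 regulators were mixed, with 4 of 18 lower (Ccne2 -0.48, the pocket protein Rbl1 -0.61) and 1 higher (Ccnd3 0.15). Muscle markers were higher with Smarcd3, 14 of 15 skeletal muscle genes and 5 of 10 cardiomyocyte genes (Actc1 3.23), the skeletal muscle sum ranging from 73.1 to 1454 CPM without and from 94.8 to 5117 CPM with it. Macrophage genes were lower for 8 of 10 (Lyz2 -2.34), their sum ranging from 7.71 to 1335 CPM without and from 0 to 271.3 CPM with it. Without other-type cells, 35 of 35 mitotic genes were lower, at a median of -0.47.

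Cdkn1a was itself in the pool and is also made by the cells, and at least 1 count was found in 7748 of 8565 cells, so cells were ranked by Cdkn1a CPM within each library and cut into 4 groups of equal size. The summed mitotic level was 3653 ± 771 CPM in the group with the least Cdkn1a, 2811 ± 772 in the next, 2453 ± 853 in the next and 2487 ± 857 CPM in the group with the most (SD, n = 36 libraries). The mean was highest in the lowest group, and groups 3 and 4 differed by less than their spread. These sums include Ube2c, which stood at 0.36, not called, in the depth-matched comparison below. The share of mitosis-high cells went from 33.4 ± 6.41% over 27.68 ± 6.36% and 24.7 ± 7.39% to 21.72 ± 5.68%. Of cells in the lowest group, 37.71% had no Cdkn1a count, and the groups differed in depth (median totals 6979, 8648, 10252 and 9796 counts).

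**Figure D4:**
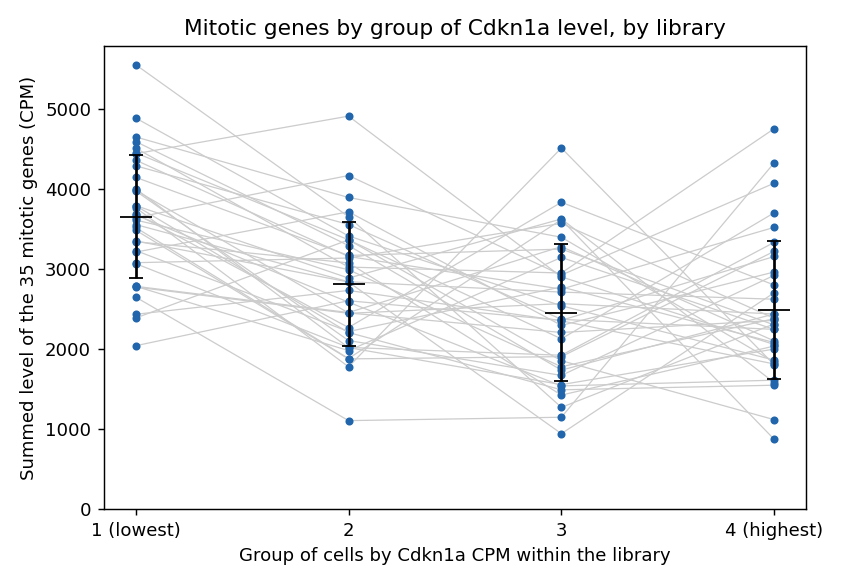
Summed level of the 35 genes (CPM) by group of Cdkn1a CPM within the library (1 least, 4 most), before depth matching; points are libraries, lines join a library, bars are mean and SD. The mean was 3653 CPM in group 1 and 2453 to 2811 CPM in groups 2 to 4.

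With depth matched, 1544 pairs of the top and bottom groups (median totals 7772 and 7778) gave 31 of 35 genes lower and 0 higher, where 10.1% of 14876 genes tested were lower and 10.3% higher. Their median log2 fold change was -0.62, against 0.01986 over all genes. The summed level was 3657 ± 1061 CPM in the bottom group (1086 to 6315) and 2566 ± 1106 CPM in the top group (1044 to 6465), lower in 29 of 36 libraries (12 of 15 in JD, 11 of 15 in PZ47-PZ48 and 6 of 6 in PZ58). Mki67 had the smallest adjusted p: it was lowest 20.3, median 163.9 and highest 428.9 CPM in the bottom group and lowest 40.9, median 99.0 and highest 311.2 CPM in the top group, lower in 33 of 36 libraries (log2 fold change -0.85, SE 0.10, adjusted p = 1.54e-09). The 2 sets of libraries overlapped over most of their range. The kinetochore gene Cenpf fell most (-0.87), and Cenpe (-0.79), the passenger subunit borealin, Cdca8 (-0.73), Kif23 (-0.74), Ccnb2 (-0.77), Tpx2 (-0.68) and Cdc20 (-0.72) fell with adjusted p between 7.62e-08 and 1.98e-06. All 5 kinetochore, all 3 checkpoint and all 7 midzone and cytokinesis genes were lower. The 4 genes not called were Aurkb (-0.19, adjusted p = 0.46), Nusap1 (-0.19, adjusted p = 0.39), Pbk (-0.15, adjusted p = 0.50) and Ube2c (0.36, adjusted p = 0.16).

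The wider cell cycle genes split in the same comparison. Of the other mitosis genes 40 of 53 were lower (Smc4 -0.76) and 2 higher, one of which, Psrc1, rose in 36 of 36 libraries from 63.9 ± 15.8 to 147.8 ± 39.9 CPM (1.18, adjusted p = 2.15e-19). Replication genes were lower for 25 of 30, with Mcm5 at -1.07 and Mcm6 at -0.75. The p53 targets other than Cdkn1a were higher for 16 of 18, among them Mdm2, the ubiquitin ligase of p53 (1.63), Trp53inp1 (2.00) and Ccng1 (1.05), each in 36 of 36 libraries. Of the G1 regulators 5 were higher and 7 lower of 18; the inhibitors Cdkn2a (0.87) and Cdkn2b (0.76) rose and Cdkn1b fell (-0.58). Markers of muscle moved too: 15 of 15 skeletal muscle genes were higher in the top group (Myog 4.75), their sum ranging from 44.4 to 2804 CPM in the bottom and from 93.4 to 6400 CPM in the top group. The macrophage list was higher for 7 of 10 genes (sum 0 to 707.4 CPM in the bottom and 0 to 1585 CPM in the top group) and the cardiomyocyte list for 4 of 10 (74.5 to 1589 and 113.5 to 10346 CPM). Of the fibroblast genes 5 of 9 were lower (9661 to 16779 and 7947 to 14192 CPM). The part of these lists in the mitotic values was not tested. Without other-type cells, 31 of 35 mitotic genes were lower, at a median of -0.57.

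With the cardiac GATA factors the mitotic genes sat lower but few passed the test. For Gata6, 1886 pairs (median totals 11519 and 11529) gave 0 of 35 genes higher and 0 lower with edgeR, and 0 with DESeq2, where 3.19% of 15969 genes tested were higher and 1.69% lower. At an unadjusted p under 0.05 there were 6 genes. The median log2 fold change was -0.19, against 0.001209 over all genes, and 34 of 35 values were below 0. The summed level was 2776 ± 953 CPM without Gata6 (931 to 5053) and 2471 ± 1106 CPM with it (725 to 6665), lower in 22 of 36 libraries. By series, this sum was lower in 7 of 15 JD, 10 of 15 PZ47-PZ48 and 5 of 6 PZ58 libraries. Its log2 ratio was -0.42 in the 10 libraries with high Rps27a and -0.07 in the other 26. The difference between these groups of libraries was not tested. Birc5 came closest, with lowest 41.4, median 133.4 and highest 282.7 CPM without and lowest 14.1, median 104.1 and highest 365.5 CPM with Gata6 (-0.36, SE 0.12, adjusted p = 0.08, lower in 27 of 36 libraries). Ube2c had the largest adjusted p (0.007869, adjusted p = 0.9984). The count moved with the way cells were paired, among other choices: with the nearest cell taken whatever its total, so that cells with Gata6 held a mean of 20157 counts against 18207, 4 genes were lower, and with no pairing 25 were. It was also 13 with every gene of at least 1 count tested, 3 without the deepest 5% of cells and 1 with at least 2 Gata6 counts asked for. Mesothelial genes rose with Gata6, 8 of 8 (Upk3b 4.55, Upk1b 3.92), their sum ranging from 13.2 to 282 CPM without and from 47.3 to 704.2 CPM with it. Cardiomyocyte genes were higher for 7 of 10 (sum 100.3 to 4466 CPM without and 159.9 to 2832 CPM with Gata6). The part of both lists in the mitotic values was not tested. Without other-type cells, 4 mitotic genes were lower at a median of -0.34.

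For Gata4, 198 pairs in 29 libraries (median totals 16750 and 16928) gave 1 of 35 genes lower and 0 higher, where 0.741% of 13098 genes tested were lower and 2.26% higher. Over the 35 genes the median log2 fold change was -0.70, against 0.007982 over all genes, and 35 of 35 values were below 0, 18 with an unadjusted p under 0.05. Cells without Gata4 had a summed level of 2733 ± 2139 CPM (221.7 to 10228) and cells with it 1552 ± 1485 CPM (170.6 to 6585), lower in 20 of 29 libraries. The libraries of this comparison rest on few cells each and scatter widely, and in the PZ58 series (4 libraries) the summed level was higher with Gata4 in 2. The gene called was Cenpf: lowest 0, median 74.1 and highest 452.5 CPM without, and lowest 0, median 22.1 and highest 214.0 CPM with Gata4 (-0.96, SE 0.25, adjusted p = 0.03, lower in 20 of 29 libraries). The Cenpf call was lost in 6 of 15 alternatives, with values from -1.19 to -0.67: without the library block, with at least 2 Gata4 counts asked for, without cells with Gata6, without the JD or the PZ47-PZ48 series, and without the 10 libraries with high Rps27a. Anln (-0.87, adjusted p = 0.08) and Cdc20 (-0.92, adjusted p = 0.08) were next, and Ccnb2 had the largest adjusted p (-0.23, adjusted p = 0.86). In G1 the D cyclin Ccnd1 fell (-0.90) and Cdkn2a rose (0.98). Mesothelial genes were higher for 7 of 8 and cardiomyocyte genes for 5 of 8 tested (Tnnt2 3.66), the mesothelial sum ranging from 0 to 414.5 CPM without and from 14.3 to 3139 CPM with Gata4. Skeletal muscle genes were higher for 4 of 15, with 15 of 15 values above 0 (sum 0 to 11129 CPM without and 0 to 6095 CPM with Gata4). The part of these lists in the mitotic values was not tested. Without other-type cells, which left 129 pairs, 13 mitotic genes were lower at a median of -1.25.

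The muscle regulators Myod1 and Mef2c showed a division between Ube2c and the other genes. Myod1 is a basic helix-loop-helix factor that can start the skeletal muscle programme, and Mef2c is a partner of such factors. For Myod1, 343 pairs in 34 libraries (median totals 12877 and 12841) gave 1 of 35 genes higher and 1 lower, where 8.94% of 13673 genes tested were higher and 5.56% lower. The median log2 fold change was -0.36, against -0.01553 over all genes, with 33 of 35 values below 0.

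The gene called higher with Myod1 was Ube2c. It stood at lowest 0, median 93.5 and highest 432.3 CPM without Myod1 and at lowest 27.2, median 415.7 and highest 1949 CPM with it (log2 fold change 2.19, SE 0.30, adjusted p = 8.12e-08, higher in 29 of 34 libraries). Ube2c and Tnnc2, which encodes fast skeletal troponin C, share 592 exonic bases on opposite strands, and the assay as deposited does not show which strand a count came from. Tnnc2 went from 3.35 ± 5.41 to 505.2 ± 505.8 CPM (6.74, adjusted p = 6.73e-31). When other-type cells were left out, Ube2c was at -0.54, and when cells with Mef2c were left out it was at -1.11. Neither value passed the threshold (adjusted p = 0.79 and 0.09). The gene called lower was Cdc20, with medians of 69.2 and 42.0 CPM (-0.76, SE 0.26, adjusted p = 0.04, lower in 22 of 34 libraries), a call lost in 10 of 15 alternatives, among them leaving out the library of replicates 4 and 6 (-0.75, adjusted p = 0.06), any 1 of the 3 series, and DESeq2 (-0.84, adjusted p = 0.0542). Nusap1 had the largest adjusted p (0.03, adjusted p = 0.98). The sum of the 35 genes was 2380 ± 1616 CPM without and 2421 ± 1754 CPM with Myod1, and without Ube2c it was 2269 ± 1541 and 1822 ± 1728 CPM, lower in 22 of 34 libraries. Skeletal muscle genes were higher for 15 of 15, their sum ranging from 0 to 850.5 CPM without and from 211.9 to 25309 CPM with Myod1. Cardiomyocyte genes were higher for 7 of 9 tested (sum 19.5 to 1635 CPM without and 554.6 to 23648 CPM with it) and fibroblast genes lower for 7 of 9 (7043 to 19460 and 3060 to 18527 CPM). The G1 regulators were mixed, with 3 of 18 higher and 4 lower, and 11 of 18 values below 0. Among them Ccnd3 (1.08), the retinoblastoma gene Rb1 (1.34) and the inhibitor Cdkn1c (1.60) rose. Of the p53 targets 5 of 18 were lower and 0 higher. Without cells with Mef2c (135 pairs), 10 mitotic genes were lower with Myod1 and the median over the 35 was -1.15. When other-type cells were left out (179 pairs), 0 mitotic genes were called and the median was -0.47.

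For Mef2c, 2050 pairs (median totals 11870 and 11827) gave 1 of 35 genes higher and 1 lower, where 4.37% of 16185 genes tested were higher and 2.79% lower. The median log2 fold change was -0.13, against 0.001137 over all genes. The summed level was 2690 ± 791 CPM without Mef2c (948 to 4776) and 2484 ± 891 CPM with it (776 to 4735), lower in 19 of 36 libraries, which is within the spread. The series differed in direction: the level was lower in 10 of 15 JD libraries (log2 ratio -0.31) and in 8 of 15 PZ47-PZ48 libraries (-0.13), and higher in 5 of 6 PZ58 libraries (0.355). The difference between series was not tested. These series values include Ube2c. Over all libraries the log2 ratio of the sum was -0.12 with Ube2c and -0.17 without it. Ube2c was higher, with lowest 30.4, median 129.1 and highest 270.7 CPM without and lowest 35.6, median 201.3 and highest 635.4 CPM with Mef2c (0.60, SE 0.13, adjusted p = 0.000764, higher in 24 of 36 libraries), beside Tnnc2 at 5.18. Ube2c was at 0.12 without cells with Myod1 and at -0.14 without other-type cells, neither passing the threshold. Bub1 was lower, from a median of 40.7 to one of 29.6 CPM (-0.35, SE 0.11, adjusted p = 0.04, lower in 24 of 36 libraries), a call lost in 7 of 15 alternatives. These were no library block (-0.36), pairs of any total (-0.29), no other-type cells (-0.30), no cells with Myod1 (-0.25), no JD series (-0.22), no PZ47-PZ48 series (-0.35) and none of the 10 libraries with high Rps27a (-0.37). Nusap1 had the largest adjusted p (-0.006447, adjusted p = 0.9967). Of the replication genes 7 of 30 were lower (Mcm4 -0.41) and of the other mitosis genes 1 of 53 (Cks1b -0.22). Skeletal muscle genes were higher for 15 of 15 (Myh3 6.07), macrophage genes for 8 of 10 and glial genes for 5 of 6. The skeletal muscle sum ranged from 63.1 to 378.8 CPM without and from 87.1 to 8592 CPM with Mef2c, the macrophage sum from 0 to 246.6 and from 12.2 to 990.1 CPM, and the glial sum from 0 to 105.3 and from 5.98 to 160 CPM. Cardiomyocyte genes were higher for 6 of 10 and lower for 1 (sum 87.3 to 1610 CPM without and 200.1 to 6553 CPM with it), and fibroblast genes lower for 3 of 9 (10117 to 15195 and 8220 to 15524 CPM).

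The shares of mitosis-high cells among the same matched cells, thinned to 3000 counts, were compared next. They were 35.25% with and 24.25% without Notch1, higher in 28 of 36 libraries, and 30.66% with and 21.1% without Hdac2, higher in 31 of 36. With Tcf3 the shares were 29.45% and 23.76%, and with Hdac1 29.74% and 24.29%. These 4 sets of cells held larger shares of mitosis-high cells. With Smarcd3 the shares were 22.78% and 31.64%, and in the top and bottom Cdkn1a groups 21.76% and 33.63%, lower in 29 and 30 of 36 libraries. With Gata4 they were 14.36% (28 of 195 cells) and 30.77% (60 of 195 cells), and with Gata6 22.34% and 27.43%, lower in 24 of 36 libraries. For Myod1 they were 24.04% and 25.52% and for Mef2c 26.09% and 26.18%, but these counts include Ube2c. With Ube2c taken out, a measure added after the data were seen, the shares were 15.73% with and 25.22% without Myod1, lower in 20 and higher in 6 of 34 libraries. For Mef2c they were 24.06% and 25.83%, lower in 18 and higher in 11 of 36. In the top and bottom Cdkn1a groups they were 20.26% and 32.95%, lower in 31 and higher in 4 of 36. Within mitosis-high cells the level of the 35 genes was close on both sides: 9045 and 8769 CPM for Notch1, 9218 and 9577 CPM for Hdac2, 9328 and 9301 CPM for Smarcd3, and 9740 and 9231 CPM for the top and bottom Cdkn1a groups. These levels include Ube2c, and the threshold itself limits how far they can part.

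All pool factors with at least 100 matched pairs were then put in one order by the log2 ratio of the summed level without Ube2c. Of 43 factors with a row, 40 qualified. Hdac2 (0.52) and Notch1 (0.50) came first, followed by the orphan nuclear receptor Nr2f2 (0.40, sum of the 35 genes higher in 30 of 36 libraries), the caspase inhibitor Xiap (0.36, 25 of 36), Tcf3 (0.33), Hdac1 (0.32) and the T-box factor Tbx5 (0.32, 21 of 34). At the other end stood Gata4 (-0.85), the cofactor Lbh (-0.49, lower in 30 of 36 libraries), Smarcd3 (-0.49), the POU factor Pou6f1 (-0.35, 22 of 35), Myod1 (-0.32) and Mef2a (-0.29, lower in 29 of 36). The 20 factors from Tbx2 to Hey2 lay between 0.11 and -0.26. The SD of the summed level over libraries ran from 584 to 2697 CPM, no test was run on the order, and places of neighbours should not be read as different.

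**Figure D5:**
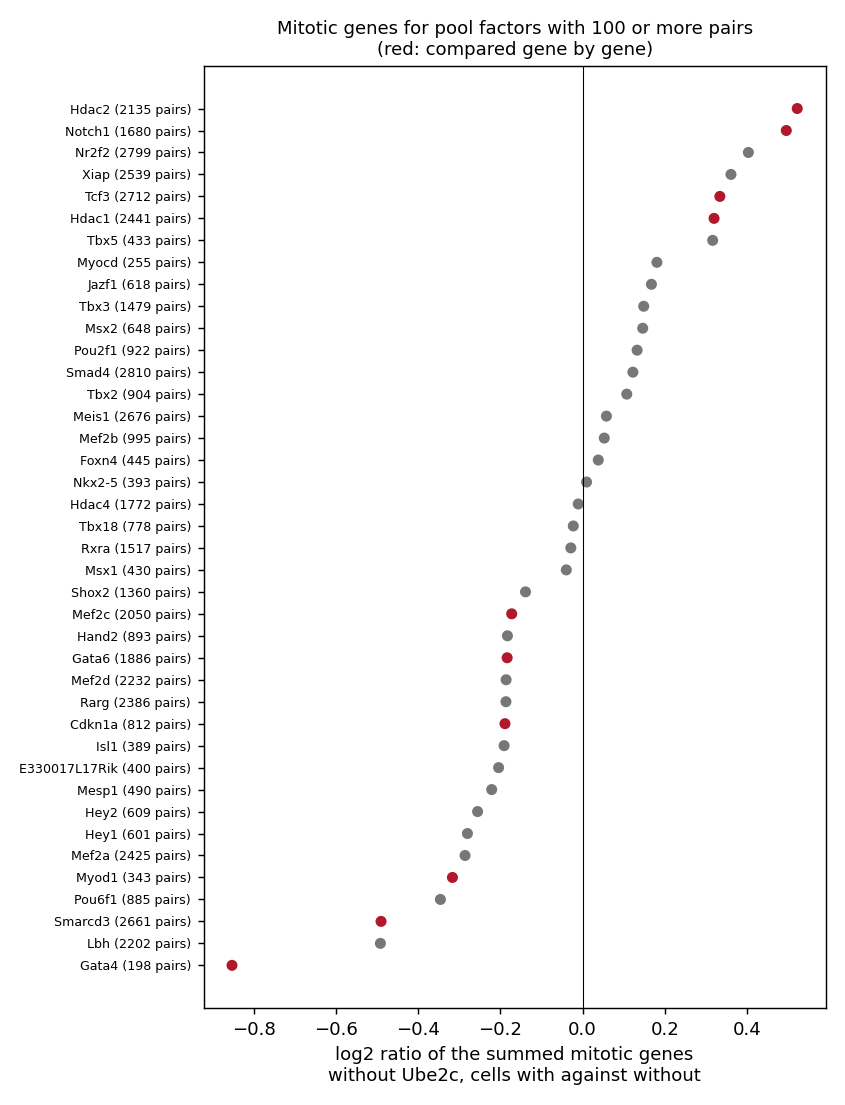
Log2 ratio of the summed mitotic genes without Ube2c in matched cells with against without each of 40 pool factors, in order; the number of pairs is given beside each name and red points are factors compared gene by gene (Cdkn1a here by detection, not by group). Hdac2 at 0.52 and Gata4 at -0.85 are the ends of the order.

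Cells with both or neither of 2 factors were also described. For Hdac1 and Hdac2, mitosis-high cells made up 18.2 ± 6.25% of cells with neither, 23.97 ± 9.95% with Hdac1 alone, 27.19 ± 7.80% with Hdac2 alone and 29.73 ± 5.70% with both (SD over 36 libraries). Depth differs between these classes before thinning, with median totals of 5464, 7279, 7237 and 15196 counts. For Notch1 and Tcf3 the shares were 22.34 ± 5.05% with neither, 33.19 ± 10.1% with Notch1 alone, 27.59 ± 4.08% with Tcf3 alone and 34.2 ± 10.1% with both (35 libraries for Notch1 alone, otherwise 36). The class with both factors stood within 1 SD of the class with Notch1 alone. For Gata6 and Gata4 they were 28.29 ± 4.81% with neither, 23.2 ± 7.84% with Gata6 alone, 12.4 ± 14.0% with Gata4 alone (112 cells, 21 libraries) and 21.25 ± 18.9% with both (98 cells, 17 libraries). For Mef2c and Myod1 they were 27.21 ± 3.57% with neither, 25.91 ± 5.83% with Mef2c alone, 14.78 ± 15.2% with Myod1 alone (149 cells) and 28.86 ± 24.5% with both (196 cells). With Ube2c taken out they were 27.04 ± 3.64%, 25.26 ± 5.30%, 14.78 ± 15.2% and 15.41 ± 18.7%, and the mean level of a cell without Ube2c was 2825, 2591, 1772 and 1704 CPM in the same order. Classes with Gata4 or Myod1 rest on a few cells per library and their SDs are wide. Cell numbers are of all thinned cells of a class, while means and SDs are over libraries with at least 3 of them. Without Ube2c, both classes with Myod1 lay below both classes without it in mean.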

How the data were processed

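Single-cell RNA of 1 culture was read in 37 technical replicates. The deposited values are whole-number counts per gene and cell; the submitters' processing notes name bcl2fastq 2.17.1.14, STAR 2.5.3a, UMI-tools, featureCounts 1.5.3 and mm10, without giving their order or the strand setting. The authors' counts were used as deposited, with no cell filter beyond the removal of 89 shared and 76 near-identical barcodes. No doublet caller was run, so cells detected with several factors may include doublets; an alternative left out the deepest 5% of cells.

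Cells with and without a factor were paired 1 to 1 without replacement within a library (caliper 0.2 on log2 total counts, at least 3 pairs per library) and summed per library. Summed counts of genes with at least 20 counts, without the factor's own gene, were tested in R 4.3.3 with edgeR 4.0.16 (TMM, glmQLFit, library as a block), and in DESeq2 1.42.0 as an alternative. The block pairs the cells of 1 library. The dispersion trend was estimated on every 4th gene by abundance and interpolated. The caliper was added because nearest pairs without a limit left mean totals unequal. The fit was tested on simulated data. Members and lists were chosen with earlier results of these data known. Named are up to 8 called members per direction with the smallest adjusted p, the member with the largest, up to 3 called genes per list, and the 5 non-members with the highest r; uncalled members and single G1 genes beyond these were named after their values were seen. Libraries held 637680 to 7921171 counts.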

Additional observations from a re-analysis of the deposited data

How the results depend on the processing

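The numbers of mitotic genes called with Smarcd3 and by Cdkn1a stayed within 1.5 times their value in each alternative run; those of the other factors did not. Of 146 such counts, 83 stayed within 1.5 times, 40 were lower and 23 higher, and the cause was not tested. Of 909 fold changes of named members, 821 kept their side of the threshold. Direction was compared only for members called in the main run. Among called members, 3 values changed sign, all of Ube2c. They were -0.5368 (Myod1) and -0.1361 (Mef2c) without other-type cells, and -1.114 with Myod1 without cells with Mef2c. None of the 3 passed the threshold (edgeR adjusted p = 0.79, 0.73 and 0.09). All 212 log2 ratios of the summed level moved by less than the SD of the log2 ratios of single libraries. Single libraries scatter far more than a mean over libraries, so this bound cannot show that the ratios are stable.

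Counts of called mitotic genes in the alternatives are given without the share over all genes. A change in such a count cannot be read as particular to mitotic genes. With every gene of at least 1 count tested, edgeR's adjusted p fell at nearly unchanged fold changes. For Cdc20 with Myod1 it went from 0.039 at -0.76 to 1.3e-05 at -0.74. Called genes were, with every gene of at least 1 count tested, 13 for Gata6, 16 for Gata4, 8 for Myod1, 11 for Mef2c, 31 for Tcf3 and 30 for Hdac1. With no limit on the totals of a pair they were 4 for Gata6, 1 for Myod1 and 1 for Mef2c. Without matching they were 25 for Gata6, 34 for Gata4, 30 for Myod1 and 12 for Mef2c. With at least 2 counts of the factor they were 1 for Gata6, 0 for Gata4, 4 for Mef2c and 20 for Notch1. Without other-type cells they were 4 for Gata6, 13 for Gata4, 0 for Myod1, 0 for Mef2c, 32 for Tcf3 and 11 for Hdac1. With the deepest 5% of cells removed they were 3 for Gata6, 16 for Gata4 and 1 for Myod1. DESeq2 gave 9 for Gata4 and 1 for Myod1, and RLE size factors 1 for Myod1. Without the other factor of a pair they were 3 for Gata4, 10 for Myod1, 0 for Mef2c and 1 for Hdac1.

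Without the library block (no replicate block), which pairs cells of the same library, they were 0 for Gata4, 1 for Mef2c, 5 for Tcf3 and 7 for Hdac1; the other counts stayed within 1.5 times.

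Without the JD series they were 0 for Gata4, 1 for Myod1, 1 for Mef2c, 21 for Notch1, 11 for Tcf3, 4 for Hdac1 and 3 for Hdac2. Without the PZ47-PZ48 series they were 0 for Gata4, 1 for Myod1, 1 for Mef2c, 7 for Notch1, 4 for Tcf3 and 8 for Hdac1. Without the PZ58 series they were 6 for Gata4, 1 for Myod1, 4 for Mef2c, 11 for Tcf3, 11 for Hdac1 and 15 for Hdac2. Alternatives chosen after seeing the data left out the 10 libraries with high Rps27a (0 for Gata4, 1 for Myod1, 1 for Mef2c, 5 for Tcf3, 7 for Hdac1 and 9 for Hdac2) or the library of replicates 4 and 6 (1 for Myod1).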
